A study of Mus musculus with 6 samples.

Results

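The genes described here are the hormone genes Lep (leptin), Adipoq (adiponectin), Retn (resistin) and Rbp4 (retinol binding protein 4), together with Lepr, which encodes the leptin receptor, and Adipor1, Adipor2 and Cdh13, which encode receptors or a binding partner of adiponectin. They were selected by symbol and make up 8 of the 56980 genes in the deposited matrices. The data were single-nucleus RNA sequencing of white fat of C57BL/6J females, in 3 groups of 2 libraries. The groups were subcutaneous adipose tissue (SAT, inguinal) at 2 months, here called young SAT, the same depot at 24 months, here called aged SAT, and visceral adipose tissue (VAT, gonadal) at 24 months, here called aged VAT. All mice were untreated and of the same strain and sex, and no transgene is given. The labels give 24 months for the older mice, whereas 26 months stands in the series' design text, and VAT at 2 months was not analysed here. The study took both depots from 2 mice per age group, so aged SAT and aged VAT may share mice, but no label ties the libraries to each other. The labels do not say that the libraries of a group came from separate mice, so the p-values measure the spread between these libraries.

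White adipocytes store triglyceride and also act as endocrine cells. Leptin is released in proportion to fat stores and acts on the brain through LEPR and the JAK2/STAT3 cascade to restrain food intake. Adiponectin circulates as multimers, improves insulin sensitivity through ADIPOR1 and ADIPOR2, and is captured at cell surfaces by T-cadherin, the product of Cdh13. Resistin is an adipocyte hormone in mice that opposes insulin action, whereas RBP4 carries retinol in blood.

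A total of 27074 nuclei passed the filters (2490 to 5776 per library, 8061862 to 16226690 UMIs per library before filtering). A UMI marks 1 captured RNA molecule, and levels are given as CPM, the UMIs of a gene over the summed UMIs of a class in a library, scaled to counts per 1e6. Pairs of libraries shared at most 0.769% of their barcodes. The labels call every sample adipocytes, but 164 to 2839 nuclei per library were named adipocytes, and in both young SAT libraries and aged VAT replicate 2 T cells were more numerous than adipocytes. The classes were named from markers that did not include the 8 genes, and each name stands for nuclei that resemble that cell type. In 5 class sums of a library at least 50% of the class's own markers were at 0, so these nuclei went against their name. They were the mesothelial nuclei of all 4 SAT libraries (46 to 87 nuclei, 201 to 350 CPM of 9 mesothelial markers, against 5598 and 4344 CPM in aged VAT) and the 24 epithelial nuclei of aged VAT replicate 1 (33.9 CPM of 10 epithelial markers, against 961 to 4801 CPM in the other libraries). The mesothelial nuclei of SAT held 1951 to 2982 CPM of the 10 epithelial markers, with none of them at 0, and so resembled epithelial nuclei more than mesothelial ones. In aged VAT replicate 2 the FAPs (fibro-adipogenic progenitors) held 4148 CPM of 10 FAP markers against 14524 to 24557 CPM elsewhere, with none at 0. The smooth muscle or pericytes of that library held 900 CPM of their 10 markers against 2835 to 8809 CPM elsewhere. Both sums were kept, so class means and depot values that include them are less certain. Libraries also differed in tissue next to fat. Aged VAT replicate 2 held 2415 CPM of ovary or oviduct genes against 21.4 to 42.2 CPM elsewhere, the SAT libraries held 344 to 1128 CPM of mammary genes against 41.6 and 137 CPM in VAT, and young SAT held 509 and 533 CPM of lymph node genes against 49.1 to 152 CPM in the aged libraries.

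The 8 genes lie on 6 mouse chromosomes in GENCODE release 39 of the GRCm39 build, and each is annotated as protein coding. Lep is at chr6:29060216-29073877 on the plus strand, Adipoq at chr16:22964106-22976810 on the plus strand, and Retn at chr8:3705324-3710689 on the plus strand. Rbp4 is at chr19:38105066-38113754 on the minus strand. Of the receptors, Adipor1 is at chr1:134343077-134361092 (plus), Adipor2 at chr6:119330111-119394668 (minus), Lepr at chr4:101574601-101676237 (plus) and Cdh13 at chr8:119010328-120051660 (plus). Whether intronic reads were counted is not given in the sources used here.

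The 250 bases upstream of the start sites of the 3 classical adipocyte hormones are shown because the Lep transcript rose with age in adipocytes and the other hormones are set against it below. They are RefSeq sequences of build GRCm38.p6, plus strand, 5′ to 3′, and 7 of the 8 genes had such a window. The windows are chr6:29059971-29060220 for Lep, chr16:23146286-23146535 for Adipoq and chr8:3655520-3655769 for Retn. Capitals mark matches, on either strand, to TTGCGCAA (a palindrome bound by C/EBP factors), CCAAT and TATAA.
Lep: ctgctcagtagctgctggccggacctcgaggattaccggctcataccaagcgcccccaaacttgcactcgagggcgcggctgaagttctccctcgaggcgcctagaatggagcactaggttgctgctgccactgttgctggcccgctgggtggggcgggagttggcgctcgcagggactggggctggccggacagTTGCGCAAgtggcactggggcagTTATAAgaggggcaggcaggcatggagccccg
Adipoq: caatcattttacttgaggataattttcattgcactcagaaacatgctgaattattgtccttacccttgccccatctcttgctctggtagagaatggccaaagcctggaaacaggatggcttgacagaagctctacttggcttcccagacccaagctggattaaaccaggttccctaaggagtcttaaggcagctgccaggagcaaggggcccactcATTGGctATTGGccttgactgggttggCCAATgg
Retn: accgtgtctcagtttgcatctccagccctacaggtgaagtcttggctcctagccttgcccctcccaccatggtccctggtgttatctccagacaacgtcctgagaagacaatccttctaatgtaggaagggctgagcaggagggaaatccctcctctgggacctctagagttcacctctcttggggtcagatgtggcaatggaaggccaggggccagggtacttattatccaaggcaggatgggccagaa
The Lep window held TTGCGCAA at bases -55 to -48 from the start site and TATAA at -31 to -27 on the plus strand, overlapping a match on the minus strand at -32 to -28. Adipoq held CCAAT at -7 to -3 on the plus strand and at -34 to -30 and -27 to -23 on the minus strand, and Retn held none of these motifs. Among 32851 RefSeq windows of the same length, 0.164% held TTGCGCAA, 33.8% held CCAAT and 22.8% held TATAA. The GC content was 65.6% for Lep, 48.8% for Adipoq and 54.8% for Retn, against a median of 52.4% over all windows. These matches describe the letters and are not evidence of binding.

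Leptin transcripts in adipocyte nuclei rose with age in SAT. The level of Lep was 102 and 71.4 CPM in the young SAT libraries, 471 and 645 CPM in aged SAT, and 353 and 289 CPM in aged VAT. All 4 aged libraries lay above both young ones. The change from young to aged SAT was 2.82 ± 0.31 on the log2 scale (SE, n = 2 libraries per group), a 7.08-fold rise with an adjusted p of 0.000346 in edgeR's quasi-likelihood test, from 255 UMIs in young and 4211 UMIs in aged SAT. Lep kept this call under each alternative that was run and without any one library, with values from 2.60 to 3.16. Here and below, leaving out a library leaves 1 in its group, which is then assumed to vary like the other groups. The alternative that took off free RNA used the profile of T and B cells, which held little Lep, so it hardly lowered Lep in adipocytes.

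Between the depots of aged mice, Lep was 0.591 times as high in VAT as in SAT adipocytes (-0.76 ± 0.28 on the log2 scale). The VAT libraries were both lower than the SAT libraries, but the difference did not pass the test after adjustment over all genes (adjusted p = 0.626, edgeR quasi-likelihood test).

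The adiponectin gene was not called with age. Adipoq stood at 1169 and 1055 CPM in young SAT adipocytes, 429 and 1412 CPM in aged SAT, and 521 and 752 CPM in aged VAT. The aged SAT libraries lay on both sides of the young ones, and the change of -0.12 ± 0.43 on the log2 scale was smaller than its error (adjusted p = 0.885, edgeR). Without aged SAT replicate 1 it was 0.55, and without replicate 2 the depot difference turned from -0.51 to 0.50, so single libraries set the sign of both. A cluster of 244 adipocyte nuclei led by Scd1, Cfd and Adipoq held 175 nuclei of aged SAT replicate 2, with 3624 CPM of Adipoq. Without that cluster the age difference of Adipoq was -0.29.

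Resistin and RBP4 transcripts were not called with age either. Retn, the resistin gene, was at 837 and 498 CPM in young SAT adipocytes, 591 and 1251 CPM in aged SAT, and 514 and 871 CPM in aged VAT. These ranges overlapped, and the age difference of 0.61 ± 0.39 on the log2 scale was not called (adjusted p = 0.33, edgeR). Rbp4, the retinol carrier, was at 67.5 and 54.7 CPM in young SAT, 65.5 and 173 CPM in aged SAT, and 106 and 141 CPM in aged VAT. Its age difference of 1.13 ± 0.38 (adjusted p = 0.0698, edgeR) rested on aged SAT replicate 2, since replicate 1 lay within the young range. Without replicate 2 it was 0.33, and it was 1.69 without replicate 1, when aged SAT is that 1 library alone.

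**Figure D1:**
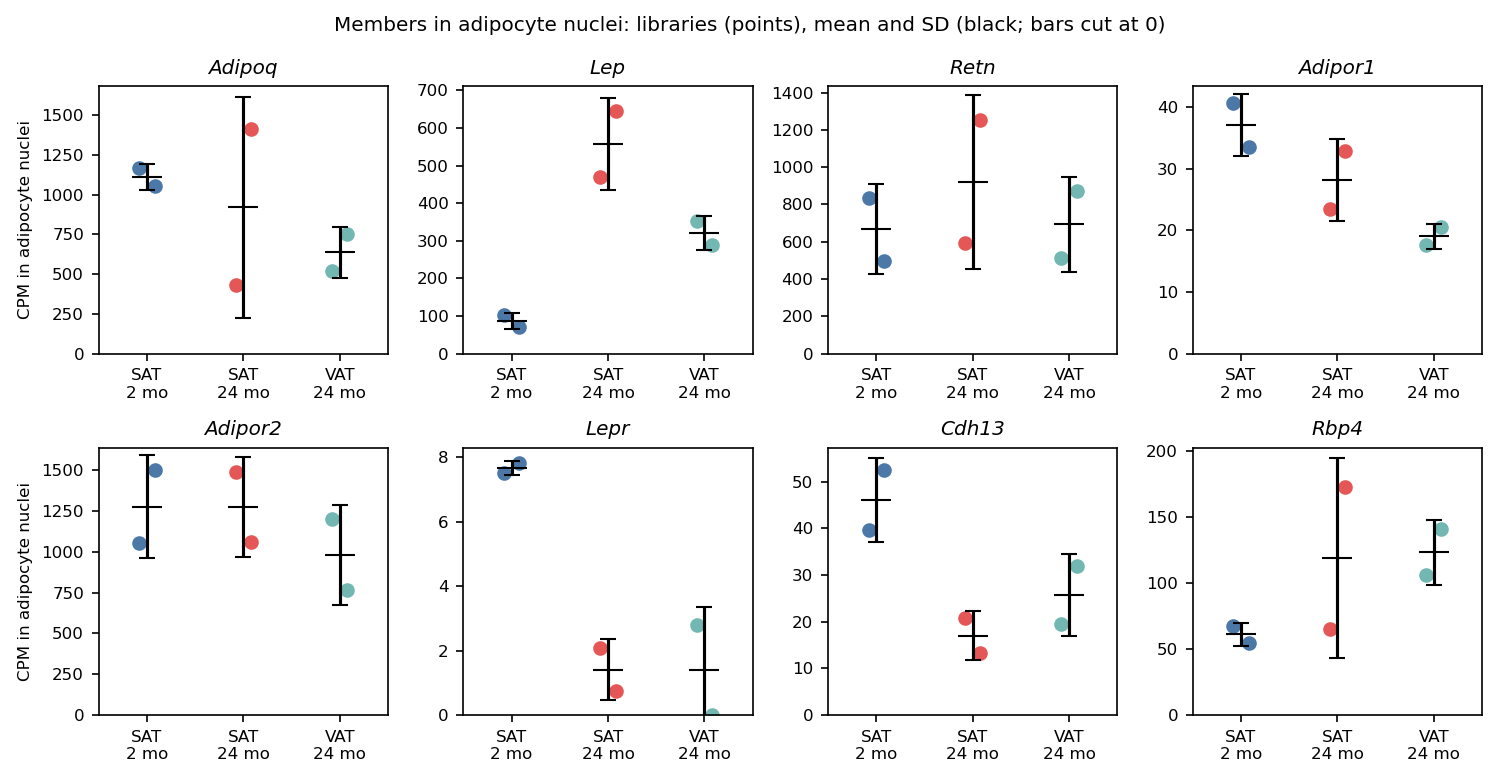
CPM of the 8 genes in adipocyte nuclei (linear y axes) for young SAT, aged SAT and aged VAT; points are libraries, black lines the mean and SD of 2 libraries, with bars ending at 0 where they would fall below it. Lep was at 71.4 and 102 CPM in young SAT and at 289 to 645 CPM in the aged libraries, while Adipoq in aged SAT ranged from 429 to 1412 CPM.

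Adiponectin receptors in adipocytes showed no called age change, whereas Cdh13 was called lower at a low level, a call that several alternatives lost. Adipor2 was at 1054 and 1502 CPM in young SAT, 1492 and 1059 CPM in aged SAT, and 1200 and 766 CPM in aged VAT. Its levels in young and aged SAT overlapped (0.17 ± 0.34 on the log2 scale, adjusted p = 0.789, edgeR). Adipor1 was at 40.7 and 33.5 CPM in young SAT, 23.5 and 32.9 CPM in aged SAT, and 17.6 and 20.5 CPM in aged VAT. Although these groups did not overlap, the age difference of -0.23 ± 0.32 was not called (adjusted p = 0.682, edgeR), and neither was the depot difference of -0.60 ± 0.34 (adjusted p = 0.794, edgeR).

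The T-cadherin gene Cdh13 was low in adipocyte nuclei, at 39.7 and 52.5 CPM in young SAT, 20.7 and 13.3 CPM in aged SAT, and 19.5 and 31.9 CPM in aged VAT. Both aged SAT libraries lay below both young ones, a change of -1.31 ± 0.38 on the log2 scale (adjusted p = 0.0403, edgeR quasi-likelihood test, n = 2 libraries per group). The call was lost with DESeq2 (adjusted p = 0.0909), with looser filters on nuclei and with each library clustered alone. It was also lost when young SAT replicate 1, young SAT replicate 2 or aged SAT replicate 2 was left out (-1.47, -1.10 and -0.89). In young and aged SAT, T cells held 28 ± 6.08 and 17.9 ± 18.9 CPM of Cdh13, and B cells 32.5 ± 4.38 and 43.5 ± 38.6 CPM (SD, n = 2). Cdh13 is known as an endothelial gene, and the summed level of 10 endothelial markers in adipocyte nuclei moved the same way, from 81.5 and 127 CPM in young SAT to 46.9 and 71 CPM in aged SAT, with at most 2 of these markers at 0 in a library. Their part in the Cdh13 result was not tested.

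Leptin receptor transcripts were scarce in adipocytes. Lepr stood at 7.51 and 7.81 CPM in young SAT (14 and 7 UMIs), at 2.07 and 0.731 CPM in aged SAT (3 and 4 UMIs), and at 2.78 CPM in aged VAT replicate 1 (22 UMIs). No UMI was found in the 164 adipocyte nuclei of aged VAT replicate 2, where 3 counts would equal 6.84 CPM. The age difference of -2.56 ± 0.91 on the log2 scale did not pass the test (adjusted p = 0.0836, edgeR).

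In total, 2 of the 8 genes, Lep and Cdh13, were called between young and aged SAT adipocytes, where 13.5% of all 12999 genes tested were called (6.36% higher and 7.16% lower in aged SAT). All 8 passed the filter on low counts in adipocytes. None was called between the depots by edgeR or DESeq2, where 0.115% of all genes were called by edgeR. There, 1 of the 8 (Lep) had an unadjusted p under 0.05 in edgeR, as did 900 of all 12999 genes tested. Scaling by library size in place of TMM shifted the median of all genes by -0.18 on the log2 scale and turned Adipor2 to -0.02, and Lep was then 2.65. In bulk sums of this kind, fewer nuclei of a kind and less RNA per nucleus cannot be told apart for subsets within a class.

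**Figure D2:**
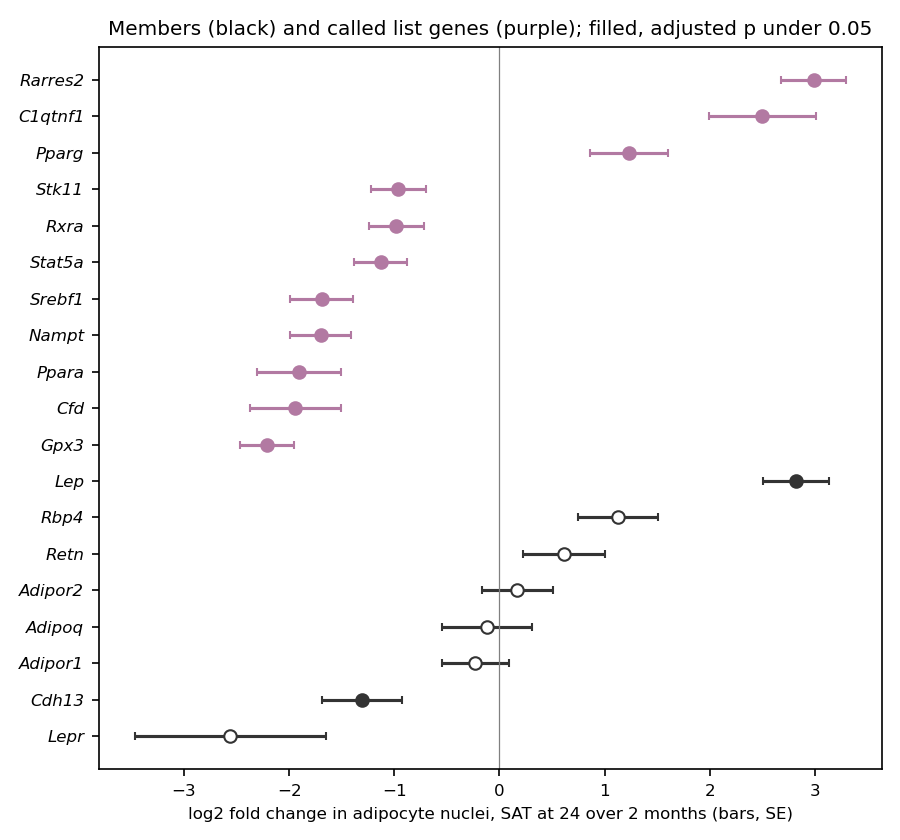
Log2 fold change in adipocyte nuclei from young to aged SAT (x axis), with bars of 1 SE, for the 8 genes (black) and the called genes of the pathway lists other than retinol handling (purple); filled points have an adjusted p under 0.05. Lep at 2.82 and Cdh13 at -1.31 are the filled black points.

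The share of adipocyte nuclei with leptin transcripts was also higher in aged libraries. After each nucleus was thinned to 1000 UMIs, Lep was detected in 8.22% and 5.07% of adipocyte nuclei in young SAT, in 32.7% and 40.7% in aged SAT, and in 26.5% and 19.5% in aged VAT. The exact (Clopper-Pearson) 95% intervals, which cover counting error only, reached at most 10.2% in young SAT and started at 13.7% or above in the aged libraries. Without thinning the shares were 15% and 8.77%, 49.2% and 61.3%, and 47.6% and 36%. T and B cell nuclei, which should lack Lep, held it in 0.194% and 0.253% (young SAT), 0.735% and 2.67% (aged SAT), and 6.67% and 0.258% (aged VAT) after thinning. The value of 6.67% came from 30 nuclei. Median depth was 1575 to 2287 UMIs in adipocytes and 1187.5 to 1426 UMIs in T and B cells.

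For the other hormones the share of adipocyte nuclei did not separate the ages. Adipoq was detected in 57.7% and 57.3% of young SAT adipocyte nuclei, in 30.1% and 62% in aged SAT, and in 37.2% and 43.3% in aged VAT, against 1.84% to 10% of T and B cells. Retn ranged from 32.7% to 57.6% over the libraries and Adipor2 from 42.7% to 72.1%, with 1.1% to 7.11% and 6.97% to 13.3% in T and B cells. Rbp4 was detected in 4.29% to 5.48% of adipocyte nuclei in both young libraries and aged SAT replicate 1, and in 9.48% to 14.9% in the other 3, against 0% to 0.889% of T and B cells. Adipor1 was detected in 1.94% to 3.89% of adipocytes and 2.32% to 4.12% of T and B cells, which are no background for a gene that was found in all classes. Cdh13 (1.42% to 5.65%) and Lepr (0% to 0.975%) were detected in adipocytes about as often as in T and B cells (0% to 6.32% and 0% to 0.903%). Their low shares in adipocytes are thus not distinguished from those of T and B cells. Cdh13 was likewise found in all classes, so these cells may not be its background. In young SAT replicate 2 its shares were 5.65% against 3.07%, with intervals, of counting error within that library only, that did not overlap.

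**Figure D3:**
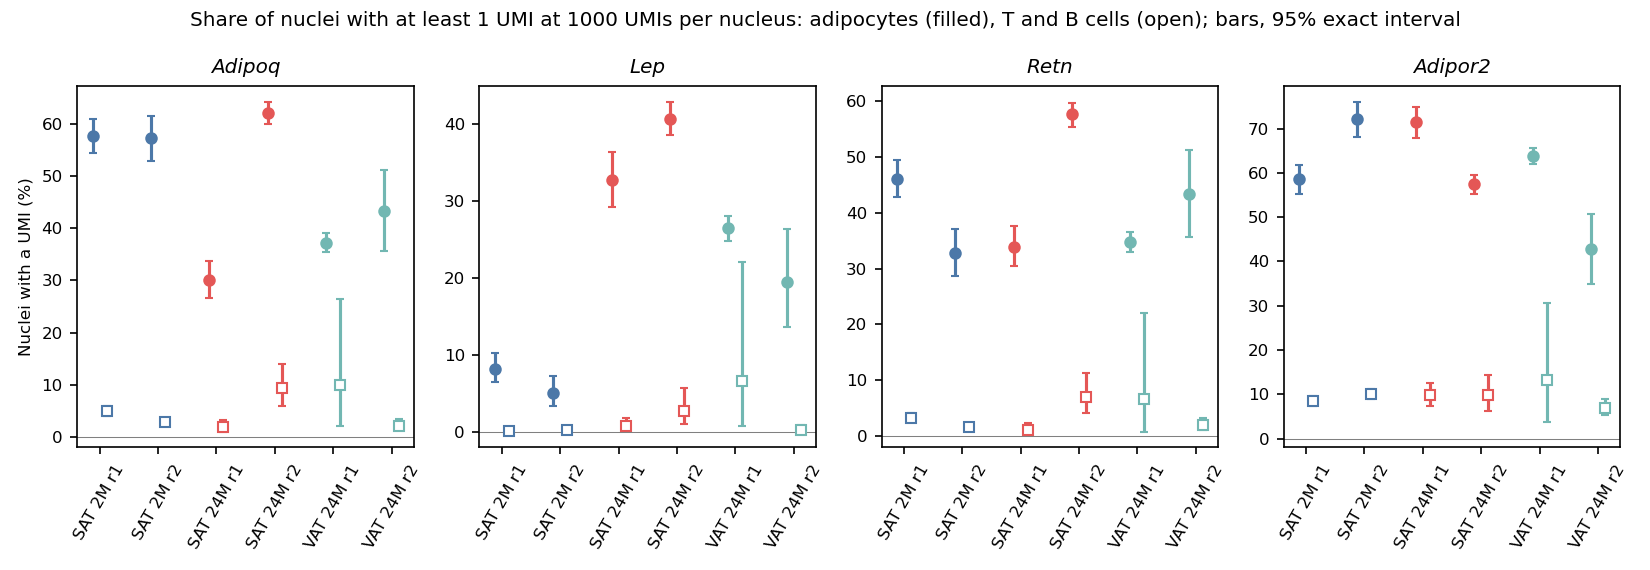
Share of nuclei (y axis, %) with at least 1 UMI of Adipoq, Lep, Retn or Adipor2 in each library after thinning to 1000 UMIs; filled points are adipocytes, open squares T and B cells, and bars exact 95% intervals. For Lep the young SAT adipocytes are at 5.07% and 8.22% and the aged adipocytes at 19.5% to 40.7%.

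In single adipocyte nuclei thinned to 1000 UMIs, Lep was detected about as often with as without an Adipoq transcript. Among nuclei with an Adipoq UMI, Lep was detected in 8.86% and 5.1% in young SAT, 31.5% and 41% in aged SAT, and 25% and 19.7% in aged VAT. Among nuclei without one, the shares were 7.35% and 5.02%, 33.3% and 40.2%, and 27.3% and 19.4%, and in every library the intervals overlapped. For Retn the shares were higher with an Adipoq UMI than without in 6 of 6 libraries. The intervals overlapped in every library but aged SAT replicate 2 (62.9% against 48.9%). Between 67.7% and 88.6% of adipocyte nuclei held at least 1 UMI of Lep, Adipoq or Retn after this thinning.

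In each of 4 adipocyte clusters Lep was higher in both aged SAT libraries than in both young ones. In the cluster led by Gm31517, Adamts5 and Eepd1 (2762 nuclei), Lep was at 145 and 89.5 CPM in young SAT, 547 and 695 CPM in aged SAT, and 425 and 392 CPM in aged VAT. In the cluster led by Fam13a, Slc1a3 and Cyp2e1 (2711 nuclei) the same libraries held 97.6 and 44.7, 449 and 535, and 297 and 288 CPM. The former was higher than the latter in 6 of 6 libraries. In the cluster led by Acaca, Acacb and Fasn, which encode enzymes of fatty acid synthesis, Lep was at 40.8 and 73.4 CPM in young and 275 and 474 CPM in aged SAT, and at 212 CPM in aged VAT replicate 1. In a further cluster, led by Slc1a3 and Acacb, it was at 68.8 and 95.2 CPM in young SAT, 222 and 544 CPM in aged SAT, and 344 and 67 CPM in aged VAT. The value of 67 CPM, from 4 UMIs in 40 nuclei of aged VAT replicate 2, lay below both young libraries. These are values of clusters of the same nuclei and were not tested. The first cluster held 33.2% and 30.8% of adipocyte nuclei in young SAT, 40.3% and 37.5% in aged SAT, and 42.2% and 25.6% in aged VAT. The cluster led by Slc1a3 and Acacb held 21.9% and 18.1%, 5.93% and 9.86%, and 8.1% and 24.4%.

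Lep was also set against Adipoq within each library, over all nuclei, without using the cell classes. In this count there were 8.48 and 6.77 Lep UMIs per 100 Adipoq UMIs in young SAT, 101 and 43.7 in aged SAT, and 63.5 and 33.2 in aged VAT. Every aged library was above both young ones. The means were 7.62 ± 1.21 and 72.2 ± 40.4 (SD, n = 2) in young and aged SAT, with a two-sided exact permutation p of 0.33, the smallest that 2 against 2 libraries allow. Aged VAT had a mean of 48.4 ± 21.4, which was 23.9 lower than aged SAT in a range that overlapped (exact permutation p = 0.67, two-sided). Without aged SAT replicate 1 this difference was 4.66 in the other direction.

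By class, the ratio differed within libraries, and these differences were not tested. In T cell nuclei it was 5.56 and 5.45 in young SAT, 75 and 50 in aged SAT, and 13.3 in aged VAT replicate 2, from 2 to 9 Lep UMIs per library. Adipocyte nuclei alone gave 8.76 and 6.77, 110 and 45.7, and 67.7 and 38.5. In endothelial nuclei it was 20.5 and 13.3 in young SAT, 47.6 and 34.9 in aged SAT, and 26.4 and 10.6 in aged VAT, from 2 to 880 Lep UMIs per library. Endothelial nuclei were thus above adipocytes in both young libraries and below them in all 4 aged ones, and in aged SAT replicate 2 the ratio reached 117 in FAPs (fibro-adipogenic progenitors, 83 Lep UMIs). T cells carried 546 to 1022 CPM of 10 summed adipocyte markers in SAT, with at most 1 of them at 0, against 13931 to 19556 CPM in adipocytes. The part of RNA free in the suspension in the T cell values was not tested.

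**Figure D4:**
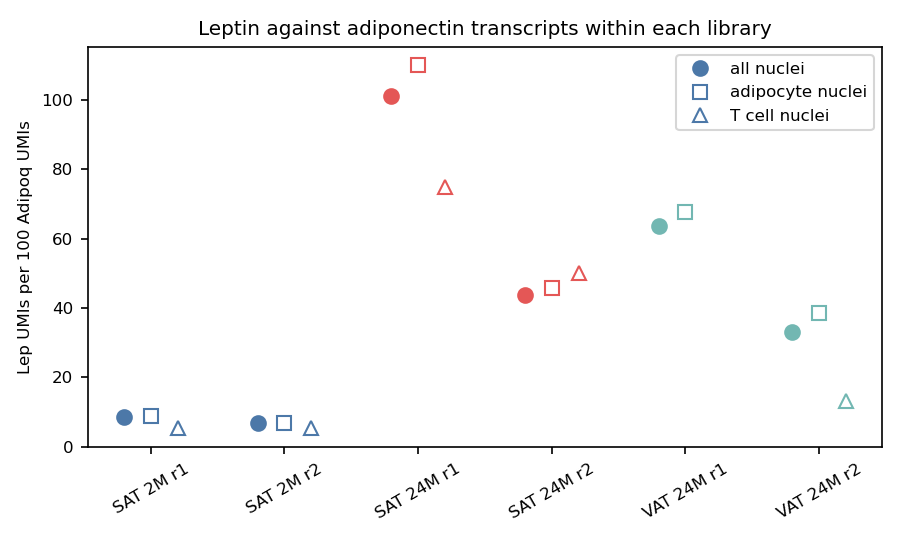
Lep UMIs per 100 Adipoq UMIs (y axis, linear) in each library, over all nuclei (filled circles), adipocyte nuclei (open squares) and T cell nuclei (open triangles; none for aged VAT replicate 1, which had 8 T cells). Young SAT lies at 5.45 to 8.76 and aged SAT at 43.7 to 110.

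Across the 10 named classes with at least 20 nuclei in 4 or more libraries, the mean levels of Adipoq, Lep, Retn, Rbp4 and Adipor2 were highest in adipocytes, followed by endothelial nuclei. The mean over 6 libraries was 890 CPM in adipocytes and 496 CPM in endothelial nuclei for Adipoq, 322 and 149 CPM for Lep, 760 and 390 CPM for Retn, 101 and 74.9 CPM for Rbp4, and 1179 and 376 CPM for Adipor2. Adipocytes were above endothelial nuclei in 6 of 6 libraries for Lep and Adipor2, in 5 for Retn and Rbp4, and in 4 for Adipoq. In aged SAT replicate 2, endothelial nuclei held 1579 CPM of Adipoq against 1412 CPM in adipocytes. Endothelial nuclei also held 803 to 6440 CPM of the summed adipocyte markers, the highest value being that of the same library, and none of the 10 markers was at 0. Their part in the endothelial hormone values was not tested.

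Adipor1 was spread over these 10 classes. Its mean was highest in endothelial nuclei (82.8 ± 44.7 CPM, SD, n = 6) and lowest in adipocytes (28.1 ± 8.97 CPM), and endothelial nuclei were above the next class, smooth muscle or pericytes (68.6 ± 16 CPM), in only 3 of 6 libraries. The classes between 68.6 and 42.2 CPM, which include epithelial nuclei, macrophages and FAPs, were not separated from their neighbours beyond their spread. Without the 5 sums that went against their names, epithelial nuclei came second (78.4 ± 28.2 CPM, SD, n = 5), and the first and last classes stayed the same. In T cells Adipor1 was at 49.9 and 40.7 CPM in young SAT and 20.4 and 27.4 CPM in aged SAT, a difference of -0.97 ± 0.38 that was not called (adjusted p = 0.115, edgeR).

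Among the same 10 classes, Cdh13 had its highest level in endothelial nuclei in each library. There it was at 324 and 452 CPM in young SAT, 1309 and 660 CPM in aged SAT, and 859 and 189 CPM in aged VAT, and its mean of 632 ± 408 CPM (SD, n = 6) compared with 168 ± 72.1 CPM in smooth muscle or pericytes and 71.5 ± 27.8 CPM in FAPs. Skeletal muscle nuclei, outside these classes because only 2 libraries held at least 20 of them, were at 1609 CPM in aged SAT replicate 2 (75 UMIs in 25 nuclei), above its endothelial nuclei, and at 50.2 CPM in aged VAT replicate 2, whose nuclei of this name held 301 CPM of 9 muscle markers against 53087 CPM. The aged SAT endothelial nuclei were both above the young ones, but the difference of 1.56 ± 0.71 on the log2 scale was not called (adjusted p = 0.421, edgeR).

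In epithelial nuclei Cdh13 fell with age. It was at 165 and 108 CPM in young SAT and 23.1 and 8.17 CPM in aged SAT, and at 31.5 CPM in aged VAT replicate 2. A cluster of 407 epithelial nuclei led by Ovgp1, an oviduct gene, reached 20 nuclei in that VAT library alone. The epithelial nuclei of the 2 depots may therefore not be of the same tissue. The 24 nuclei named epithelial in aged VAT replicate 1 held 33.9 CPM of Cdh13 (1 UMI), with 9 of 10 epithelial markers at 0 and 4570 CPM of FAP and 2370 CPM of adipocyte markers. The change in SAT was -3.23 ± 0.42 on the log2 scale (adjusted p = 8.51e-05, edgeR quasi-likelihood test, n = 2 libraries per group), from 410 UMIs in young and 39 in aged SAT. It lay mainly in a cluster led by Areg, Slc7a2 and Slc12a2, where Cdh13 was at 190 and 140 CPM in young and 32 and 5.99 CPM in aged SAT, whereas 2 further epithelial clusters of SAT, led by Itprid1 and by Wfdc18, held 6.11 to 29 CPM at either age. The cluster led by Areg made up 264 of 393 and 138 of 270 epithelial nuclei in young SAT and 113 of 305 and 199 of 498 in aged SAT. The call held without those 24 nuclei (-3.26, adjusted p = 6.88e-05, edgeR), without any one SAT library (-4.06 to -2.56) and with DESeq2 (-3.19), but not with looser filters on nuclei (-2.14).

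Lepr was concentrated in few nuclei. Of 686 UMIs in all, 278 fell in an unnamed cluster of 425 nuclei led by Pcdh15, Csmd1, Ccl21a, Cxcl13, Ccl19 and Cr2, several of which are chemokine genes of lymphoid stroma. In this cluster Lepr was at 308 and 436 CPM in young SAT, 437 and 342 CPM in aged SAT, and 0 and 7.73 CPM in aged VAT. All 4 SAT libraries were far above both VAT libraries, whose part of the cluster was 37 and 82 nuclei. This contrast was not tested, since the nuclei were grouped by their own expression. The 5 summed lymph node genes of whole libraries, of which Ccl21a and Cr2 lead this cluster, were at 533 and 509 CPM in young SAT, 146 and 49.1 CPM in aged SAT, and 56.3 and 152 CPM in aged VAT. Their part in the Lepr values was not tested.

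Lepr was also found in both endothelial clusters. The 221 nuclei led by Mmrn1, Ccl21a and Flt4, genes of lymphatic vessels, held 46 UMIs, at 88 to 203 CPM in 4 libraries. The main endothelial cluster of 1017 nuclei held 82 UMIs, and by library it ranged from 3.24 CPM in aged SAT replicate 2 to 220 CPM in aged VAT replicate 2, with no order by age or depot. Over all endothelial nuclei Lepr was at 96.2 and 147 CPM in young SAT, 140 and 6.25 CPM in aged SAT, and 22.2 and 163 CPM in aged VAT, so that libraries of a group differed more than the groups did (age -0.78 ± 1.17, adjusted p = 0.844, edgeR). In smooth muscle or pericytes only aged VAT replicate 1 was high, at 306 CPM from 14 UMIs in 24 nuclei, and the others were at 0 to 7.35 CPM.

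**Figure D5:**
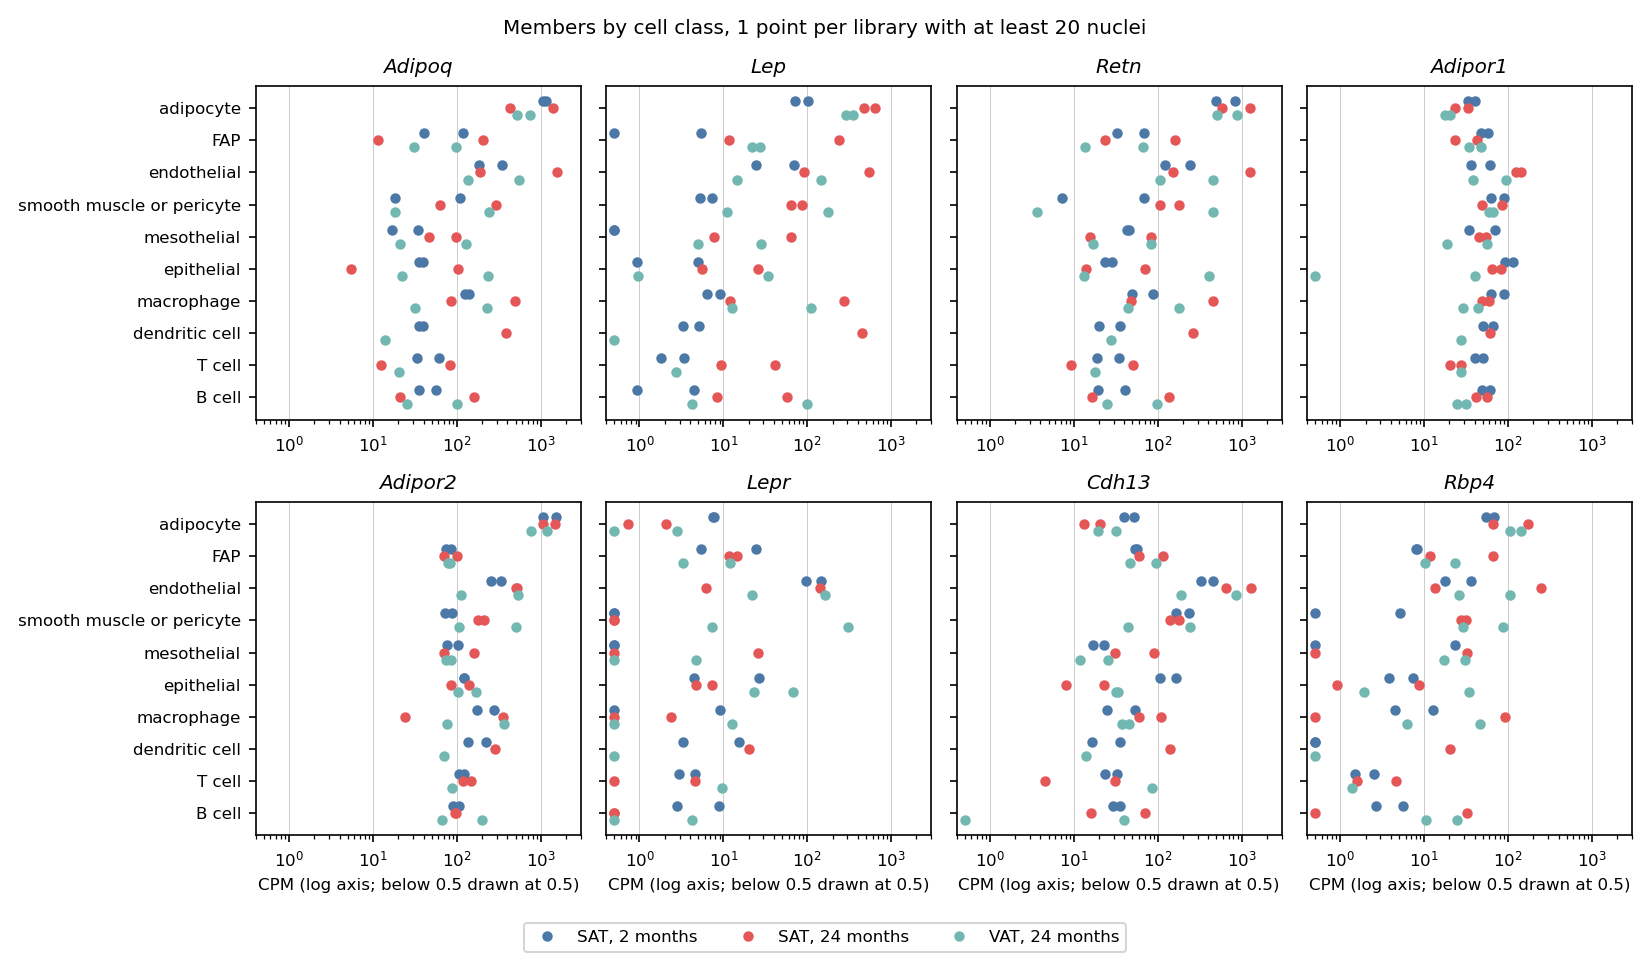
CPM of the 8 genes (log x axis; values below 0.5 drawn at 0.5) by cell class, for the 10 named classes with at least 20 nuclei in 4 or more libraries, with 1 point per library holding at least 20 nuclei of the class. The mesothelial points of SAT and the epithelial point of aged VAT replicate 1 are the sums that went against their names. Of these rows, the adipocyte row is highest for Adipoq, Lep, Retn, Adipor2 and Rbp4 on average, and the endothelial row is highest for Cdh13, at 189 to 1309 CPM.

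Outside adipocytes, 2 of 42 tests of the 8 genes between young and aged SAT were called in 7 classes, where the share of all genes called ranged from 0% in FAPs and mesothelial nuclei, through 0.0256% in endothelial nuclei, 0.0354% in macrophages, 2.12% in B cells and 3.2% in epithelial nuclei, to 9.97% in T cells. They were Cdh13 in epithelial nuclei and Lep in T cells, and 2 of 39 tests remained called without the sums that went against their names. Lep in T cells was at 3.38 and 1.81 CPM in young and 9.39 and 41.1 CPM in aged SAT, from 14 and 15 UMIs (2.96 ± 0.92, adjusted p = 0.043, edgeR, n = 2 libraries per group). It lost its call without aged SAT replicate 2, young SAT replicate 1 or young SAT replicate 2 (1.92, 3.57 and 2.73). The call was also lost when 5% of the UMIs, spread as in T and B cells, were taken off as free RNA (2.82). That profile came from these same nuclei, so this step cannot separate free RNA from their own transcripts.

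In the 5 other classes in which Lep was tested, its mean was higher in aged than in young SAT without a call. In FAPs it was at 5.35 and 0 CPM in young and 11.6 and 239 CPM in aged SAT (adjusted p = 0.308, edgeR), and in endothelial nuclei at 70 and 24.4 against 90.3 and 550 CPM (adjusted p = 0.348, edgeR). The high values were all in aged SAT replicate 2, in which adipocytes made up 44.8% of nuclei and held 71.5% of all Lep UMIs. The part of free RNA and doublets in these values was not tested. Between depots, 0 of 36 tests in these classes were called by edgeR or by DESeq2. The share of all genes called by edgeR was 19.5% in epithelial, 8.81% in mesothelial, 0.0239% in FAP, 0.0886% in macrophage, and 0% in endothelial and B cell nuclei. Of the 36 tests, 5 had an unadjusted p under 0.05 in edgeR. They were 3 in epithelial nuclei (with 3775 of 12184 genes), 1 in FAPs (476 of 8363 genes) and 1 in endothelial nuclei (379 of 7824 genes). The epithelial nuclei of VAT include the cluster led by Ovgp1, so the epithelial share may compare different tissues. The epithelial and mesothelial shares rest on sums that went against their names, and without these sums, which leaves 1 VAT library for epithelial nuclei and no mesothelial test, 0 of 33 tests were called by edgeR.

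Genes known to act with these hormones were examined in adipocytes as 7 lists, and none of their genes was called between the depots by edgeR. With age, each count below stands against 13.5% of all 12999 genes called, 6.36% higher and 7.16% lower, and nothing particular to a list is read from it. Leptin signalling had 13 of 13 genes tested, of which 0 rose and 1 fell with age in SAT, and its median change was -0.15 on the log2 scale against 0.00 over all genes. The gene that fell was Stat5a, a transcription factor below JAK2 (-1.13 ± 0.25, adjusted p = 0.0128, edgeR), from 266 ± 16.1 to 108 ± 22.4 CPM (SD, n = 2). Stat3, the main factor activated by LEPR, changed by -0.68 ± 0.23 without a call (adjusted p = 0.0674, edgeR).

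In the list of adiponectin assembly and signalling, 11 of 11 genes were tested, 0 rose and 2 fell (median 0.01), where 7.16% of all genes fell. Ppara, a nuclear receptor of fatty acid oxidation, fell by 1.91 on the log2 scale (SE 0.40), and Stk11, the kinase LKB1 upstream of AMPK, fell by 0.96 (SE 0.26). Of 7 resistin relatives and proposed resistin receptors, 4 were tested and none was called. Tlr4, a proposed receptor, was at 55.6 ± 7.45 CPM in aged and 39.9 ± 1.91 CPM in young SAT (adjusted p = 0.132, edgeR). Of these 4, 2 (Tlr4 and Ror1) had an unadjusted p under 0.05 in edgeR, as did 3907 of all 12999 genes tested.

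Among the genes of retinol handling, Aldh1a1, which makes retinoic acid, rose by 1.70 ± 0.37 on the log2 scale, from 384 ± 203 to 1117 ± 222 CPM, and Dhrs3, which reduces retinaldehyde to retinol, rose by 1.01 ± 0.29. Stra6, the RBP4 receptor, did not pass the filter on low counts.

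Among 9 C1q/TNF-related paralogues of adiponectin, 3 were tested and C1qtnf1 rose (2.50 ± 0.51, from 4.38 ± 0.124 to 22.7 ± 6.97 CPM). Other adipokines had 10 of 12 genes tested, with 1 higher and 3 lower (median -0.30), where 6.36% and 7.16% of all genes were. Rarres2, which encodes chemerin, rose by 2.99 ± 0.31 on the log2 scale, or 7.93-fold (18 ± 3.36 to 131 ± 42.2 CPM, adjusted p = 0.000289, edgeR), a size close to that of Lep. Cfd, which encodes adipsin, fell from 6883 ± 1458 to 1623 ± 949 CPM, Gpx3 from 1462 ± 13.2 to 282 ± 40.3 CPM, and Nampt from 456 ± 73.7 to 126 ± 0.0438 CPM (SD, n = 2).

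Of 7 transcription factors known at adipokine promoters, all were tested, 1 rose and 2 fell (median 0.21), where 6.36% and 7.16% of all genes did. Pparg, the master regulator of adipocytes, rose by 1.23 ± 0.37 on the log2 scale, although it also served as 1 of the 10 adipocyte markers. Srebf1, a regulator of lipid synthesis, fell by 1.69 (SE 0.30) and Rxra, the partner of PPAR factors, by 0.98 (SE 0.26). Cebpa, whose product can bind the TTGCGCAA motif of the Lep window, was at 237 ± 63.7 CPM in young and 247 ± 152 CPM in aged SAT (0.21 ± 0.40, adjusted p = 0.771, edgeR).

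The genes most like each of the 8 in pattern were found by Pearson's r of log2 CPM over 61 class and library sums, among 12461 genes, as a description, since sums of a library share its depth and its free RNA. For Adipoq they were Car3 (0.958), Plin1 (0.915) and Cidec (0.914), and for Retn Car3 (0.962), Plin1 (0.929) and Fabp4 (0.923). Lep was closest to Npr3 (0.921), which encodes a clearance receptor of natriuretic peptides, then to Car3 (0.886) and Nnat (0.884). Rbp4 resembled Cidec (0.864), Tspan12 (0.833) and Car3 (0.830), and Adipor2 resembled Apol6 (0.876), Lipe (0.870) and Gm16168 (0.858). The remaining receptors had weaker matches, of at most 0.770 (Cdh13, with Tinagl1), 0.720 (Adipor1, with Rab11b) and 0.691 (Lepr, with Id1). Over the 56 sums that did not go against their names, the closest gene stayed the same for Adipoq, Lep, Retn, Adipor2 and Rbp4 and became Dysf (0.769) for Cdh13, Eef2 (0.661) for Adipor1 and Ecscr (0.718) for Lepr.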

How the data were processed

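The authors deposited raw counts for 6 libraries, as UMIs of each gene in each nucleus, without normalization. Per the study's methods, nuclei were captured on a Singleron chip (one label field names 10x Genomics), read on an Illumina sequencer, and processed with Celescope against GRCm39; its version and annotation are not given in the sources used here. The study's filters were applied (more than 500 genes, more than 1000 UMIs and less than 15% mitochondrial counts in a nucleus).

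The 8 genes were left out of clustering and of the marker lists. The 1000 most variable genes gave 30 principal components, corrected by library (own implementation of Harmony), and Leiden clustering (20 neighbours, resolution 2.0; immune nuclei again at 1.0) gave 40 clusters before the immune nuclei were split. A cluster was named when at least 3 markers of a list were over 2-fold and no other list came within 0.5 log2 units. It stayed unnamed where its 10 leading genes held more genes of another list. This last condition was extended to lymph node genes after the clusters had been looked at. As an alternative chosen after seeing the data, class sums of a library with at least 50% of the class's own markers at 0 were left out. Scrublet marked 0.0519% to 0.562% of nuclei, which counts as not having worked, and no doublets were removed.

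Counts were summed over the nuclei of a class in a library where it had at least 20. edgeR 4.0.16 (R 4.3.3) fitted the 3 groups together (TMM, filterByExpr, quasi-likelihood test, two-sided), with Benjamini-Hochberg adjustment over all genes of a class and comparison; an adjusted p under 0.05 made a call. SE is the log2 fold change divided by the square root of F. Python 3.11.15, scanpy 1.11.5, leidenalg 0.10.2, scipy 1.17.1 and DESeq2 1.42.0 (an alternative) were also used, and the scripts were tested on simulated data. The 8 genes and all lists were chosen with earlier results of these data known. Of the lists, genes called in adipocytes were named, at most 4 per list and direction. For the list of retinol handling genes, 1 member's result is not reported here, so its counts and median are not given and the genes named from it do not stand for the list. Stat3, Tlr4, Ror1 and Cebpa were named besides after their values were seen. Deviations of same-numbered libraries from their group means correlated at -0.102, 0.001 and 0.220, so numbers were not taken as pairs.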

Additional observations from a re-analysis of the deposited data

How the results depend on the processing

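Of 362 alternative results, 57 of the summary counts and ratios were scored as the same, 20 as moved and 1 as reversed. A ratio was scored as the same when its difference lay within the pooled SD of the main one. Of the single gene values, 253 kept their direction and side of the threshold. The count of the 8 genes called with age in adipocytes went from 2 to 1 with DESeq2, looser filters on nuclei, or each library clustered alone, since Cdh13 lost its call (-1.27, -0.82 and -1.03), and ranged from 1 to 3 with a library left out. In other classes, the age count went from 2 to 1 with free RNA taken off, library size scaling, looser filters or the replicate number as a block (the replicate block; Lep in T cells 2.99, adjusted p = 0.161), to 4 of 29 tests with each library clustered alone and to 9 of 56 without the filter on low counts, and from 1 (without either young library) to 6 (without aged SAT replicate 1) with a library left out. The replicate block changed no other call. The depot count there went from 0 to 1 without the nuclei of the highest 5% of Scrublet scores (an alternative chosen after seeing the data, ties included), to 2 without the filter, and from 0 to 3 (without VAT replicate 1) with a library left out. The cause of these changes was not tested. Free RNA was taken as the profile of T and B cells, so that setting cannot separate free RNA from the transcripts of those nuclei.

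Signs that turned were all of changes that were not called. With age they were Adipor2 with library size scaling (-0.02), Adipoq with looser filters (0.00) and, with a library left out, Adipor1 (-0.43 to 0.02, turned without aged SAT replicate 1), Adipor2 (-0.06 to 0.47, without aged or young SAT replicate 1) and Adipoq (-1.13 to 0.55, without aged SAT replicate 1). Between depots they were Rbp4 with library size scaling (-0.02), looser filters (-0.03) and no filter (-0.04) and, with a library left out, Lepr (-4.32 to 1.64, turned without VAT replicate 1), Retn (-0.86 to 0.15) and Adipoq (-1.15 to 0.50, both without aged SAT replicate 2), Rbp4 (-0.51 to 0.82, without aged SAT replicate 1 or VAT replicate 2) and the Lep to Adipoq ratio (difference -52.5 to 4.66, without aged SAT replicate 1). Library size scaling moved the calls of all genes with age from 47% to 32.8% higher. Leaving out the adipocyte cluster led by Scd1, also chosen after seeing the data, changed no count in adipocytes. With 2 libraries per group and 164 adipocyte nuclei in VAT replicate 2, small depot differences may have been missed. The size of depot difference that could be detected was not measured.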
